A study of Mus musculus with 12 samples.

Results

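Kinesins are motor proteins that move along microtubules or take them apart, and tubulins are the subunits from which microtubules are built. Every probeset that named exactly 1 gene with a symbol of the forms Kif or Kifc and a number, or Tuba, Tubb, Tubd, Tube or Tubg and a number, was taken. This gave 137 probesets of 58 genes, 41 kinesins and 17 tubulins (1 of them a pseudogene, Tubb2a-ps2), out of 34945 probesets with 1 gene and 18193 genes on the array. The arrays measured RNA of testicular cells sorted by flow cytometry from males 8 to 10 weeks old of the PWD/Ph strain (hereafter PWD), an inbred strain from wild Mus musculus musculus, and of the C57BL/6J strain (hereafter B6), which is mostly of M. m. domesticus origin. The labels name no treatment and give 3 populations per strain, with 2 arrays in each of the 6 groups and 12 arrays in all: prepachytene spermatocytes, pachytene spermatocytes and spermatids. By the study's methods the prepachytene gate took leptotene, zygotene and early pachytene cells, and the pachytene gate took later pachytene and diplotene cells. The labels do not say whether the replicates came from separate animals. The p-values rest on how far apart the 2 sorted samples of a group were, pooled over the 6 groups, and this spread may be technical. The study's methods speak of biological replicates for RNA expression, without tying the numbers in the labels to animals.

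A dividing or meiotic cell builds a spindle, on which the kinesins named here as mitotic and meiotic motors separate the poles, align the chromosomes and hold the midzone between daughter cells. After meiosis a round spermatid builds the manchette, a transient skirt of microtubules that shapes the head, and the axoneme, the microtubule core of the flagellum. Motors of cilia and flagella, such as the kinesin-2 family, carry cargo along both. Alpha and beta tubulin form the microtubule wall, gamma tubulin starts new microtubules, and delta and epsilon tubulin belong to centrioles. The 58 genes were sorted by these roles into 15 mitotic and meiotic motors (32 probesets), 7 manchette and flagellar motors (16 probesets), 19 other kinesins (56 probesets), 4 alpha tubulins, 8 beta tubulins, 4 gamma, delta and epsilon tubulins and the pseudogene. Kif19a, a motor that limits the length of cilia, was in the list of flagellar motors but was matched to no probeset and was not analysed here. A further 8 probesets paired a kinesin or tubulin with another gene and were left out, among them those of Tuba1b and Tuba1c.

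All values are log2 intensities. Each gene is given by its brightest probeset, the one with the highest mean over the 12 arrays, and a difference of 1 stands for a 2-fold change. The background level was set at 3.88, which 95% of 65 probesets for 34 genes of other organs did not exceed in their means. By that level 42 of the 58 genes were above background on average, 48 were above it in at least 1 group, and 10 were in none: Kif12, Kif15, Kif26b, Kif28, Kif5a, Tuba3b, Tubb1, Tubb4a, Tubg2 and Tubb2a-ps2. A change is called where the adjusted p-value from limma (Benjamini-Hochberg over all probesets) was under 0.05. Because probesets near the floor vary very little between arrays, very small differences passed this test, and counts of calls of at least 1 on the log2 scale are therefore given too. Where 4 values of a population are given, they are those of the 2 B6 arrays followed by those of the 2 PWD arrays.

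Marker genes followed the labelled stages only in part, and markers of other cell types were also measured in the sorted cells. The study's methods, by antibody staining of sorted aliquots, report that most cells of each population were of the intended type. Replicate arrays correlated at 0.987 to 0.996 over all probesets. All 10 markers of prepachytene spermatocytes fell into pachytene cells and all 10 markers of pachytene spermatocytes rose. The summed pachytene markers were nevertheless higher in B6 spermatids (17.75 to 17.79) than in B6 pachytene cells (17.43 to 17.68), and in B6 3 of the 10 had their highest mean in spermatids. Of the spermatid markers, 3 of the 12 were highest in PWD prepachytene cells. The 12 spermatid markers had a summed level of 17.95 to 17.98 in B6 spermatids and 17.27 to 17.77 in PWD spermatids, but those of 15.78 to 15.84 in B6 and 16.47 to 16.75 in PWD prepachytene cells lay above those of 14.36 to 14.57 in B6 and 14.75 to 15.28 in PWD pachytene cells. The 10 Sertoli cell markers had a summed level of 14.59 to 14.89 in B6 and 15.08 to 15.31 in PWD prepachytene cells, against 8.65 to 9.34 in pachytene cells and 9.97 to 11.29 in spermatids. Of its defining markers, Amh and Gata4 were not above background in any group. Wt1 was above it on average only in PWD prepachytene cells (6.39 and 4.67, against 4.32 and 3.02 in B6), and Sox9 went the other way, at 3.79 and 3.85 in PWD and 4.29 and 4.28 in B6 prepachytene cells. The 7 spermatogonial markers measured summed to 10.61 to 11.56 in prepachytene cells and 5.69 to 6.97 elsewhere. Of the 4 Leydig cell markers measured at most 1 was above background in any group, and of the 7 peritubular and blood cell markers 1 was above it in every group. In bulk samples such as these, fewer cells of a type and less RNA per cell cannot be told apart. The median probeset above background was also lower by 0.46 in pachytene than in prepachytene cells and by 0.25 in spermatids than in pachytene cells. Splits of calls after centring every array on these probesets are given beside the main ones.

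The kinesin and tubulin genes moved in both directions between populations. From prepachytene to pachytene cells 21 were called higher, where the share over all genes was 43.7%, and 24 were called lower, where that share was 28.4%. With a difference of at least 1 the counts were 9 higher (19.3% of all genes) and 18 lower (22.4% of all genes). From pachytene cells to spermatids 15 were called higher (18.2% of all genes) and 11 lower (23.8% of all genes), and with at least 1 the counts were 10 higher (13.6% of all genes) and 6 lower (15.1% of all genes). From prepachytene cells to spermatids 26 were higher (48.9% of all genes) and 22 lower (31.6% of all genes). Centring the arrays turned these splits into 30 higher and 18 lower, 30 higher and 9 lower, and 35 higher and 19 lower. The shares over all genes were not counted after centring, and the shares given here are not comparable with these splits. Pachytene arrays enter both of the first 2 comparisons, so that those are not independent.

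The mitotic and the flagellar motors ran in opposite directions from prepachytene to pachytene cells. Of the 15 mitotic and meiotic motors, 10 fell and 3 rose, with a median difference of -0.93 over the 15. The 3 include Kif15, which was not above background in any group. The 10 include Kif2c, whose probesets disagreed at this step. Of the 7 manchette and flagellar motors 1 fell and 5 rose, with a median of 1.09 over the 7. The 5 include Kif3a, whose probesets also disagreed at this step, with 2 called higher and 2 lower. Over all 18193 genes 28.4% fell and 43.7% rose, and the median was 0.09. Counting only differences of at least 1, 6 mitotic and meiotic motors fell and 1 rose, and 1 manchette and flagellar motor fell and 4 rose. Over all genes 22.4% fell and 19.3% rose by that much. Of the 10889 genes above background on average, 3600 fell and 3324 rose by that much. After centring the arrays, 7 mitotic and meiotic motors were called lower and 4 higher with a median of -0.47, and 1 manchette and flagellar motor was called lower and 6 higher with a median of 1.55. No median or share over all genes was taken after centring. With 1 array left out at a time, 9 to 10 mitotic and meiotic motors were called lower and 1 to 2 higher, and 1 manchette and flagellar motor was called lower and 5 to 6 higher. The heatmap of the 48 genes shows these steps on every array.

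**Figure D1:**
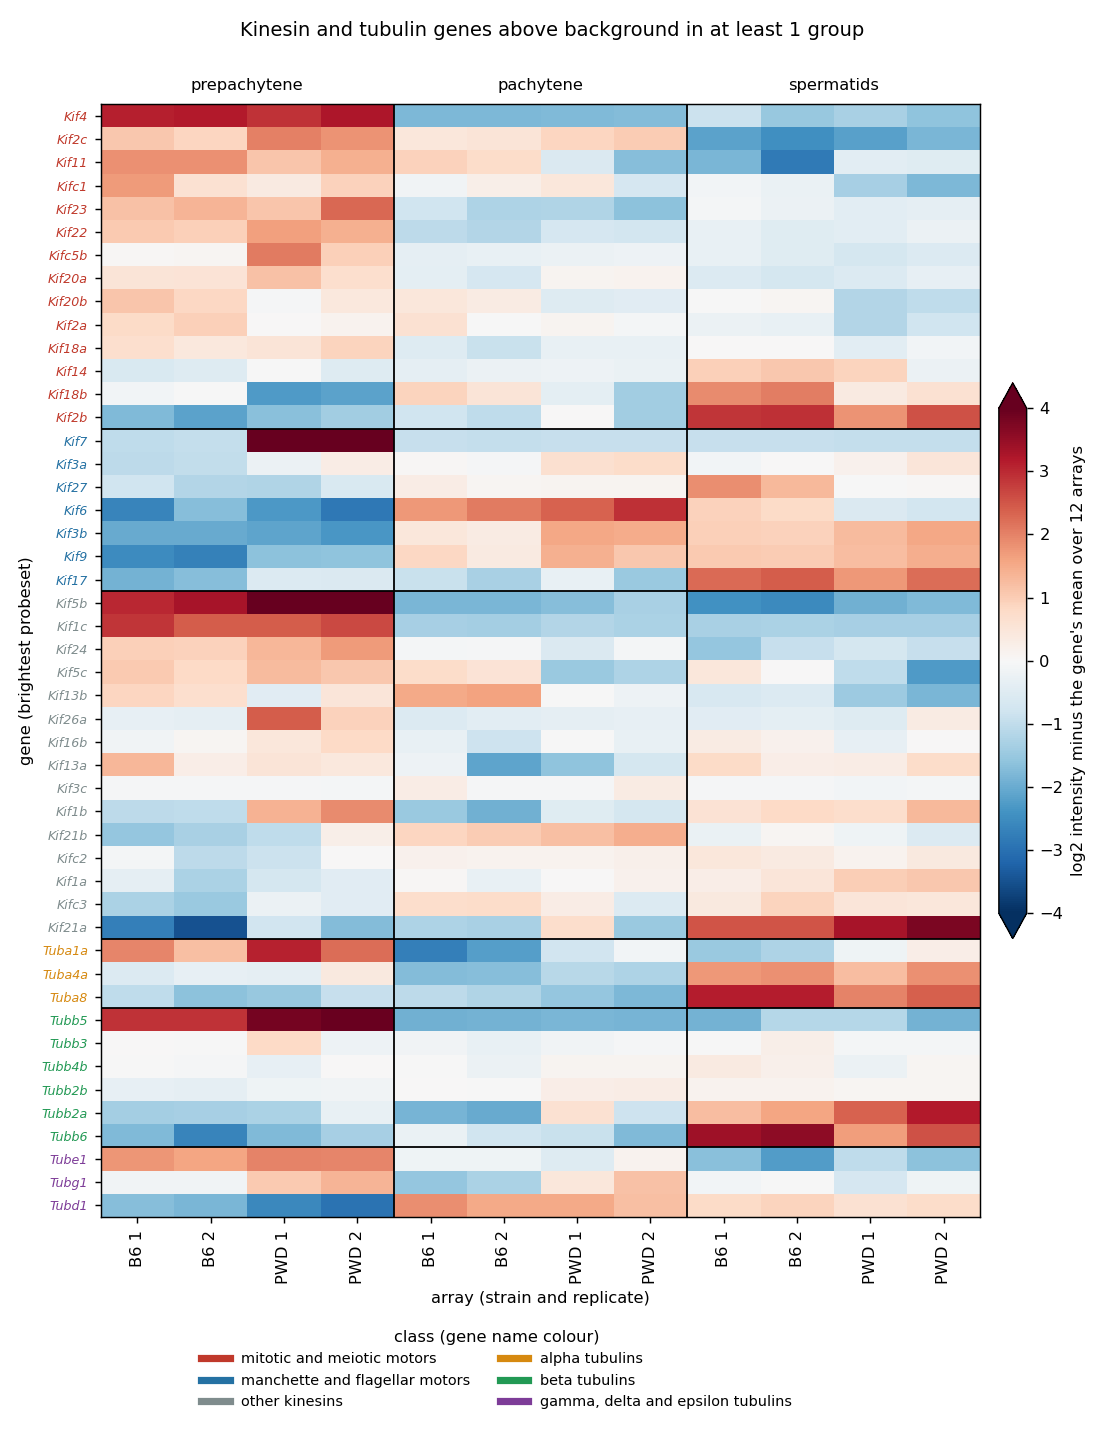
Each row is 1 of the 48 genes above background in at least 1 group and each column 1 of the 12 arrays, and the colour is the log2 intensity minus the gene's own mean over the 12 arrays, so that levels cannot be compared between rows. Most mitotic and meiotic motors (top block) are red in the 4 prepachytene arrays, whereas Kif6, Kif3b and Kif9 in the block under it are blue there and Kif7 is red only in the 2 PWD prepachytene arrays.

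The mitotic and meiotic motors that fell most into pachytene cells were a chromokinesin, a midzone motor and another chromokinesin. Kif4, an X-linked chromokinesin that works on chromosome arms and the midzone (GRCm38, chrX:100626065-100727271), read 8.46, 8.52, 8.25 and 8.57 in prepachytene cells, 3.54, 3.54, 3.57 and 3.60 in pachytene cells and 4.50, 3.83, 4.04 and 3.73 in spermatids. All 4 pachytene arrays were below background and the 4 prepachytene arrays far above it, with no overlap. The measured difference was -4.89 (SE 0.169, limma adjusted p = 1.07e-07), and taken against the background level the fall was at least 4.57 on the log2 scale. Kif23, the MKLP1 motor of centralspindlin that cytokinesis needs (chr9:61917277-61946810), read 11.90, 12.07, 11.84 and 13.03 in prepachytene cells, 9.94, 9.48, 9.53 and 9.10 in pachytene cells and 10.66, 10.50, 10.31 and 10.37 in spermatids. It fell by 2.70 into pachytene cells (SE 0.253, limma adjusted p = 3.39e-05), with no overlap between the prepachytene arrays and the others. Its rise of 0.95 into spermatids (limma adjusted p = 0.0219) was lost in 6 of 12 fits with 1 array left out, those without a PWD spermatid array, a B6 spermatid array, B6 pachytene replicate 2 or PWD pachytene replicate 2, where it was 0.83 to 0.99. Kif22, the chromokinesin Kid, read 12.24, 12.12, 12.82 and 12.59 in prepachytene cells, 10.13, 10.02, 10.52 and 10.46 in pachytene cells and 10.90, 10.70, 10.76 and 10.96 in spermatids. It fell by 2.16 (limma adjusted p = 3.17e-07) and rose by 0.55 into spermatids (limma adjusted p = 0.00199), and its other 2 probesets were called in the same directions at both steps. The summed spermatogonial and Sertoli cell markers were also far higher in prepachytene than in pachytene cells. The part of those cells in the falls of the spindle motors was not tested.

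The other spindle motors that were highest in prepachytene cells fell by less into pachytene cells. Kif11, the Eg5 motor that pushes the spindle poles apart, read 9.17, 9.18, 8.46 and 8.79 in prepachytene cells, 8.28, 8.10, 6.78 and 5.67 in pachytene cells and 5.52, 4.53, 6.94 and 6.88 in spermatids. It fell by 1.69 into pachytene cells (limma adjusted p = 0.00123). Its mean change of -1.24 into spermatids over both strains (limma adjusted p = 0.0105) came from B6, since the PWD spermatid arrays lay above the PWD pachytene arrays. Kif18a, a kinesin-8 that aligns chromosomes, read 10.98, 10.74, 10.83 and 11.20 in prepachytene cells, 9.80, 9.43, 10.01 and 10.01 in pachytene cells and 10.32, 10.33, 9.88 and 10.19 in spermatids. It fell by 1.12 into pachytene cells (limma adjusted p = 0.000153), while its change into spermatids was 0.37 with a 95% interval of 0.06 to 0.68. Kif20a, the MKLP2 motor of the midzone, read 11.70, 11.73, 12.35 and 11.86 in prepachytene cells, 10.79, 10.52, 11.29 and 11.34 in pachytene cells and 10.64, 10.49, 10.64 and 10.85 in spermatids. It fell by 0.93 into pachytene cells (limma adjusted p = 0.000318). Kif20b, another midzone motor, read 10.91, 10.60, 9.73 and 10.20 in prepachytene cells, 10.24, 10.13, 9.27 and 9.33 in pachytene cells and 9.77, 9.88, 8.62 and 8.77 in spermatids. It fell by 0.62 into pachytene cells (limma adjusted p = 0.0035) and by 0.49 into spermatids (limma adjusted p = 0.0198), a call lost without B6 pachytene replicate 1, B6 spermatid replicate 1, PWD pachytene replicate 2 or PWD spermatid replicate 1 (-0.47 to -0.45). Kif11, Kif18a and Kif20a had every prepachytene array above every pachytene array, and Kif20b only within each strain.

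The minus-end motor Kifc1, a kinesin-14 that focuses spindle poles and has also been placed at the acrosome and manchette, read 7.88, 6.78, 6.53 and 7.08 in prepachytene cells, 6.01, 6.41, 6.61 and 5.48 in pachytene cells and 6.05, 5.91, 4.84 and 4.37 in spermatids. Its fall of 0.94 into pachytene cells (limma adjusted p = 0.0349) was lost in 5 of 12 fits with 1 array left out, those without either B6 pachytene array, B6 prepachytene replicate 1, PWD pachytene replicate 2 or PWD prepachytene replicate 2 (-1.04 to -0.65), and 1 PWD pachytene array lay above 1 PWD prepachytene array. Kifc5b, a close copy of Kifc1, read 4.27, 4.30, 6.28 and 5.16 in prepachytene cells, 3.85, 3.91, 3.97 and 4.01 in pachytene cells and 3.90, 3.74, 3.50 and 3.67 in spermatids. It fell by 1.06 (limma adjusted p = 0.00344), and the 2 PWD prepachytene arrays stood above all others. The Kifc1 probeset was of a design in which all probes match more than 1 transcript, so that the signals of Kifc1 and Kifc5b may be shared.

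A few motors of the same list went the other way. Kif2b, a kinesin-13 that takes microtubules apart at the kinetochore (chr11:91575286-91577555), read 9.77, 9.40, 9.87 and 10.17 in prepachytene cells, 10.76, 10.52, 11.57 and 10.15 in pachytene cells and 14.42, 14.47, 13.36 and 14.10 in spermatids. It rose by 3.33 from pachytene cells to spermatids (SE 0.308, limma adjusted p = 6.55e-05), and the 4 spermatid arrays lay above all others. Its rise of 0.95 into pachytene cells (limma adjusted p = 0.0251) was lost without B6 pachytene replicate 1, B6 prepachytene replicate 2 or PWD prepachytene replicate 1 (0.86 to 0.89), and it was 0.59, still called, without PWD pachytene replicate 1. Kif18b, a kinesin-8 of astral microtubules, read 8.27, 8.37, 6.11 and 6.24 in prepachytene cells, 9.28, 8.91, 7.98 and 7.01 in pachytene cells and 10.27, 10.45, 8.76 and 9.00 in spermatids. It rose by 1.05 and then by 1.32 (limma adjusted p = 0.00301 and 0.00136), and within each strain the order was prepachytene, pachytene, spermatids with no overlap. Kif14, a motor of cytokinesis, was above background only in spermatids, at 4.68, 4.80, 4.61 and 3.48. Its rise of 0.94 (limma adjusted p = 0.0151) was at least 0.52 when set against the background level, and PWD spermatid replicate 2 was below that level. Kif15, a spindle motor, was not above background in any group.

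For 2 kinesin-13 genes of this list the probesets of the gene moved in opposite directions. Kif2c, the centromere depolymerase MCAK, read 11.96, 11.74, 12.91 and 12.68 in prepachytene cells, 11.34, 11.39, 11.74 and 11.88 in pachytene cells and 8.72, 8.43, 8.70 and 9.03 in spermatids with its brightest probeset, 1437611_x_at, which fell by 2.87 into spermatids (limma adjusted p = 1.75e-06). Its probeset 1449060_at read 9.46, 9.49, 10.05 and 10.29 in prepachytene cells, 9.80, 9.57, 10.41 and 10.06 in pachytene cells and 12.95, 12.91, 12.23 and 12.67 in spermatids and rose by 2.73 at the same step (limma adjusted p = 3.33e-06). A probeset with lower values, 1454221_a_at, rose by 2.83 as well. No direction is therefore given for Kif2c between pachytene cells and spermatids. From prepachytene to pachytene cells its probesets disagreed as well, with 2 called higher and 1 lower, and the mean of its probesets changed by 0.22. The suffix _x_at marks a design in which some probes also match other sequences, and which probeset follows which transcript was not tested.

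Kif2a, a kinesin-13 of spindle poles and of neurons, showed a split of another kind. Its brightest probeset, 1450053_at, read 13.10, 13.32, 12.38 and 12.50 in prepachytene cells, 12.97, 12.33, 12.45 and 12.27 in pachytene cells and 12.12, 12.06, 11.18 and 11.56 in spermatids and changed by -0.32 into pachytene cells (95% interval -0.68 to 0.04) and fell by 0.78 into spermatids (limma adjusted p = 0.00473). The probeset 1452499_a_at read 6.86, 7.59, 6.87 and 7.53 in prepachytene cells, 11.18, 10.30, 11.63 and 11.59 in pachytene cells and 11.08, 11.01, 11.28 and 11.69 in spermatids, a rise of 3.96 into pachytene cells (limma adjusted p = 3.32e-06), and 1454107_a_at rose by 3.45 (limma adjusted p = 0.000245). Both stayed high in spermatids, with no overlap between their prepachytene arrays and the others. Of the 13 genes that had at least 2 probesets above background, 2 had calls in opposite directions from prepachytene to pachytene cells (Kif2c and Kif3a). From pachytene cells to spermatids there were also 2 (Kif2c and Kif1b).

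**Figure D2:**
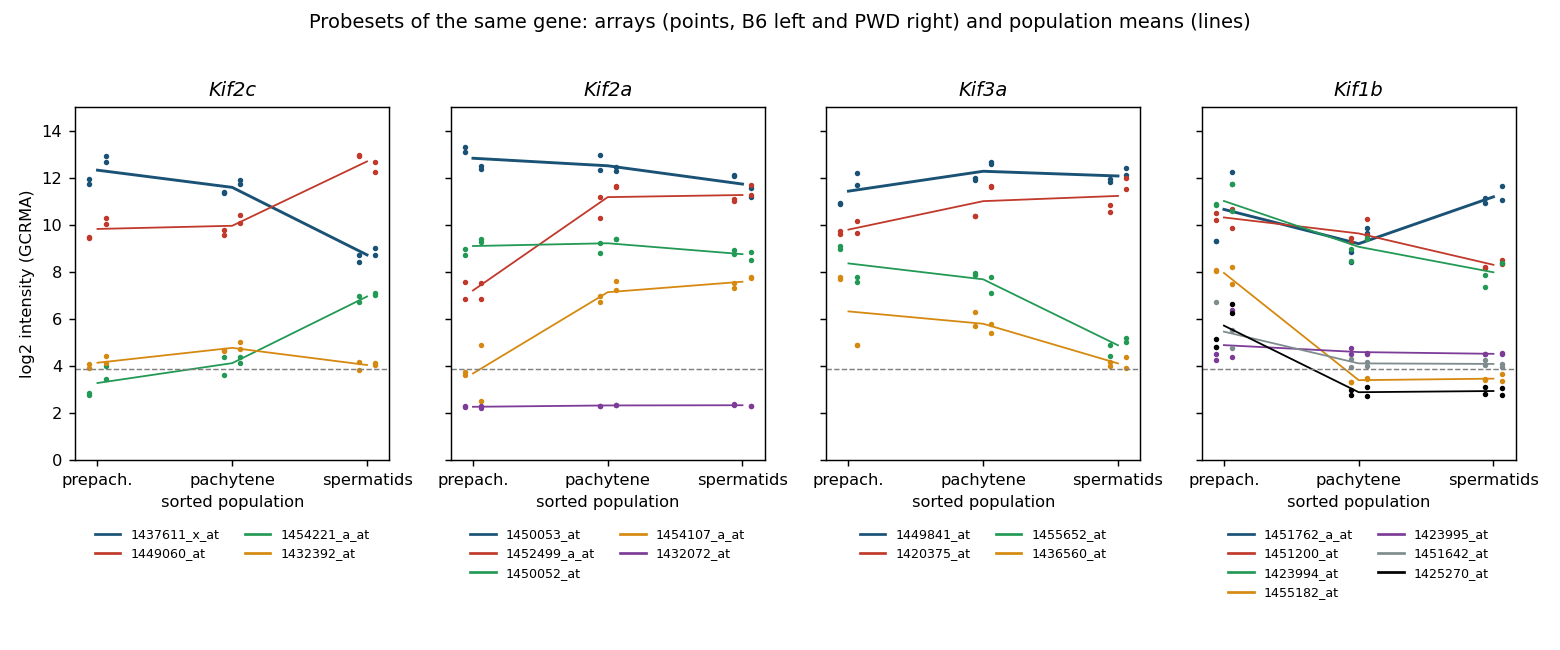
The panels give every probeset of Kif2c, Kif2a, Kif3a and Kif1b in the 3 populations on the log2 scale, as points for the 12 arrays (B6 to the left, PWD to the right) and lines through the population means, with the brightest probeset as the thick line and the background level of 3.88 dashed. In Kif2c the thick line falls by 2.87 into spermatids while the line under it rises by 2.73, and in Kif2a a pair of dimmer probesets rise into pachytene cells and the thick line does not.

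Of the manchette and flagellar motors, all but Kif7 rose at 1 or both steps. Kif9, a motor of the central pair of the sperm flagellum (chr9:110476738-110525174), read 8.93, 8.74, 9.79 and 9.82 in prepachytene cells, 12.25, 11.81, 12.85 and 12.52 in pachytene cells and 12.48, 12.45, 12.65 and 12.90 in spermatids. It rose by 3.04 into pachytene cells (SE 0.127, limma adjusted p = 2.86e-07) and changed by 0.26 after that (95% interval -0.03 to 0.56). Kif3b, a motor subunit of heterotrimeric kinesin-2, which drives intraflagellar transport, read 8.28, 8.26, 8.17 and 7.94 in prepachytene cells, 10.73, 10.62, 11.82 and 11.77 in pachytene cells and 11.23, 11.22, 11.56 and 11.82 in spermatids. It rose by 3.07 (SE 0.0924, limma adjusted p = 5.63e-08), and its 3 other probesets rose by 2.34 to 4.37 at that step. Kif9 and Kif3b each had all 4 prepachytene arrays below all pachytene and spermatid arrays with no overlap. Kif6, a motor of motile cilia (chr17:49615098-49909847), read 3.67, 4.62, 4.00 and 3.45 in prepachytene cells, 8.04, 8.40, 8.66 and 9.22 in pachytene cells and 7.24, 7.06, 5.74 and 5.58 in spermatids. It rose by 4.64 into pachytene cells (SE 0.249, limma adjusted p = 1.1e-06), where it peaked, and fell by 2.17 into spermatids (limma adjusted p = 0.000211). On 2 of its 4 prepachytene arrays, 1 of each strain, Kif6 was below background.

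Kif17, a kinesin-2 that moves as a homodimer and carries the ACT coactivator of CREM in spermatids (chr4:138262251-138301973), rose late. It read 6.90, 7.09, 8.24 and 8.20 in prepachytene cells, 7.88, 7.49, 8.48 and 7.31 in pachytene cells and 11.06, 11.21, 10.51 and 11.01 in spermatids. It changed by 0.18 into pachytene cells (95% interval -0.41 to 0.77) and rose by 3.16 into spermatids (SE 0.254, limma adjusted p = 3.2e-05), and its other probesets rose by 3.46 and 3.55. The 4 spermatid arrays stood at least 2 above all other arrays. Kif27, a motor of motile cilia and a close relative of Kif7, read 8.52, 8.14, 8.12 and 8.72 in prepachytene cells, 9.61, 9.41, 9.42 and 9.42 in pachytene cells and 11.18, 10.61, 9.29 and 9.37 in spermatids. It rose by 1.09 into pachytene cells (limma adjusted p = 0.00116). Its further rise of 0.65 (limma adjusted p = 0.0269) was lost in 7 of 12 fits with 1 array left out, those without any one of the pachytene arrays, either PWD spermatid array or B6 spermatid replicate 1, at 0.51 to 0.70. The B6 spermatid arrays of Kif27 were above all others and those of PWD were not.

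Kif3a, the partner of Kif3b in kinesin-2, read 10.87, 10.94, 11.69 and 12.22 in prepachytene cells, 11.97, 11.88, 12.57 and 12.67 in pachytene cells and 11.82, 11.95, 12.10 and 12.42 in spermatids with its brightest probeset. It rose by 0.84 into pachytene cells (limma adjusted p = 0.000651), and a second bright probeset, 1420375_at, rose by 1.21. A pair of dimmer probesets fell at the same step, 1455652_at by 0.68 and 1436560_at by 0.53 (limma adjusted p = 0.0109 and 0.0283), and again into spermatids, by 2.80 and 1.68. Kif7, a kinesin of the ciliary tip that acts in Hedgehog signalling, read 2.10, 2.16, 7.51 and 8.21 in prepachytene cells, 2.19, 2.16, 2.19 and 2.20 in pachytene cells and 2.20, 2.21, 2.17 and 2.17 in spermatids. Only the 2 PWD prepachytene arrays were above background, so that its call of -2.81 into pachytene cells over both strains (limma adjusted p = 5.26e-07), a fall of at least 1.12 against the background level, came from these 2 arrays.

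**Figure D3:**
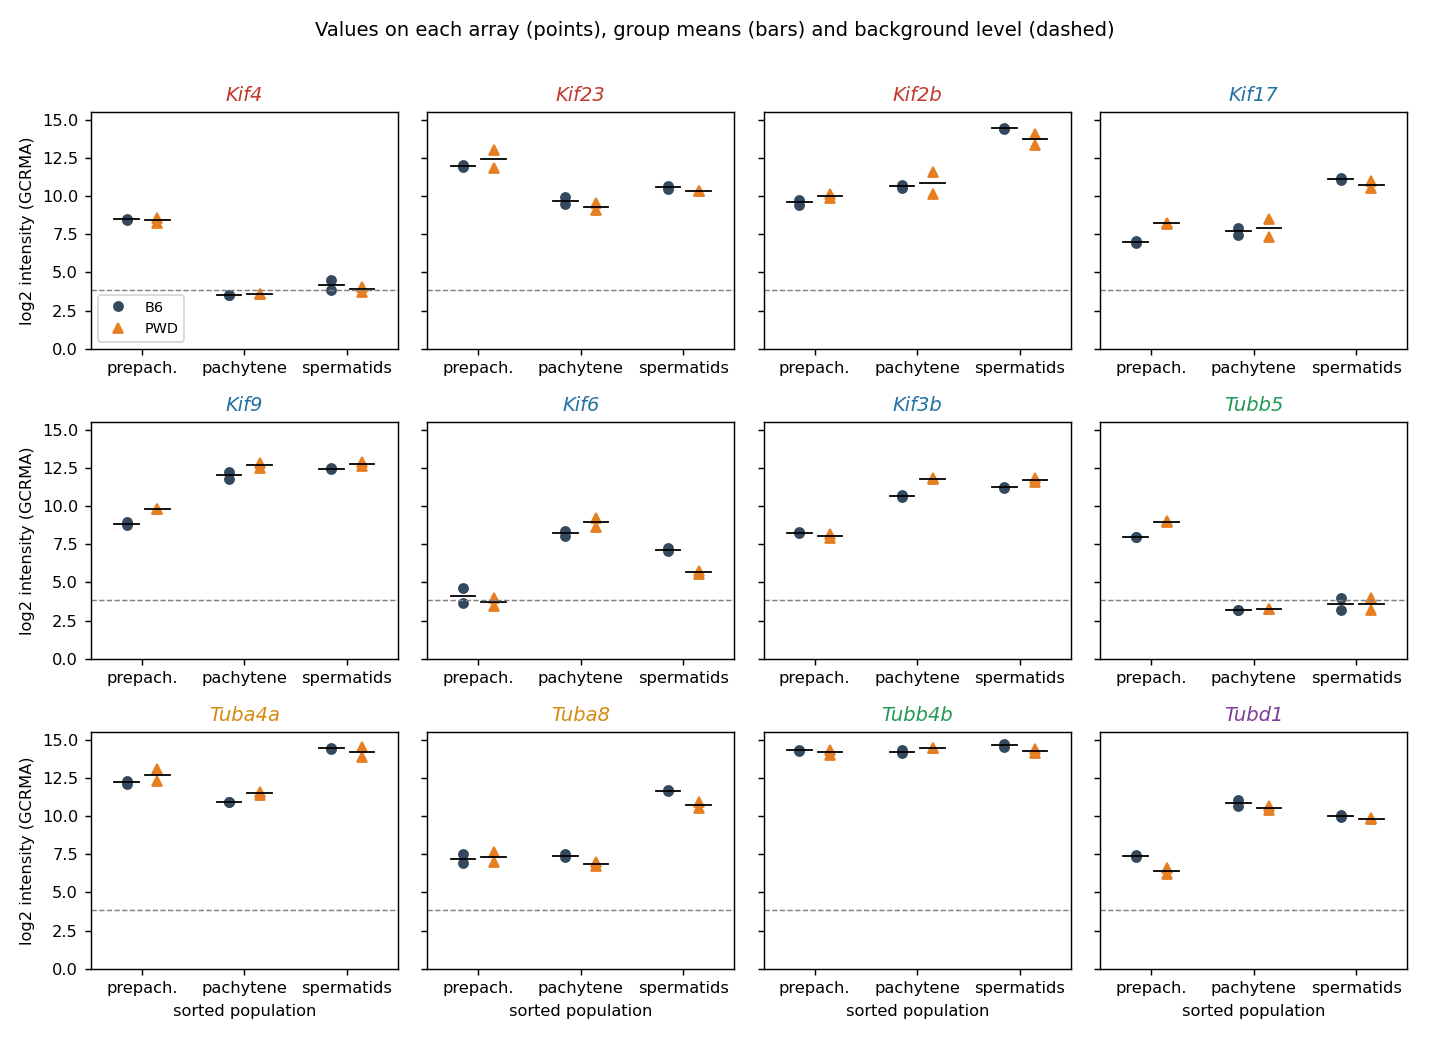
Each panel gives the log2 intensity of 1 gene on the 12 arrays (circles for B6, triangles for PWD), with the mean of each group as a bar and the background level of 3.88 dashed. Kif4 and Tubb5 drop to the background level after the prepachytene stage, Kif9, Kif3b and Tubd1 rise into pachytene cells, Kif2b, Kif17, Tuba4a and Tuba8 rise into spermatids, and Tubb4b lies between 14.01 and 14.72 on all arrays.

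The motors were also compared by the population in which their mean was highest. Of the 14 mitotic and meiotic motors above background in at least 1 group, 11 were highest in prepachytene cells and 3 in spermatids, none in pachytene cells, and all 14 had their peak in the same population in B6 and PWD. Of the manchette and flagellar motors, Kif7 was above background only in PWD prepachytene cells and has no peak in B6. Of the other 6, 2 were highest in pachytene cells and 4 in spermatids in B6, against 4 and 2 in PWD. The 2 that differed were Kif3b and Kif27, whose pachytene and spermatid means lay close together in PWD. The peak of Kif3b is that of its brightest probeset. Of its 4 probesets, 2 were called lower from pachytene cells to spermatids over both strains and none higher. Over all genes above background the shares were 41.7% in prepachytene cells, 24.0% in pachytene cells and 34.3% in spermatids in B6, and 41.9%, 32.5% and 25.6% in PWD. From prepachytene cells to spermatids, 11 of the 15 spindle motors were called lower and 3 higher, with a median of -1.26, and 6 of the 7 flagellar motors were called higher and 1 lower, with a median of 2.47. Over all genes 31.6% were called lower and 48.9% higher at this step. The 11 called lower, like the 11 highest in prepachytene cells, include Kif2a and Kif2c by their brightest probesets. Their second brightest probesets were higher in spermatids than in prepachytene cells, by 4.05 and 2.87. The 6 flagellar motors called higher include Kif3a, for which 2 probesets were called higher and 2 lower. The mean of the Kif3a probesets changed by -0.90. After centring the arrays the medians were -0.54 and 3.19. From pachytene cells to spermatids the groups differed less, with 5 spindle motors higher and 4 lower at a median of -0.08, and 2 flagellar motors higher and 1 lower at a median of 0.22. Over all genes 18.2% were called higher and 23.8% lower there. The 4 spindle motors called lower include Kif2c by its brightest probeset. These counts and medians describe the lists, and no test was made of a difference between them.

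**Figure D4:**
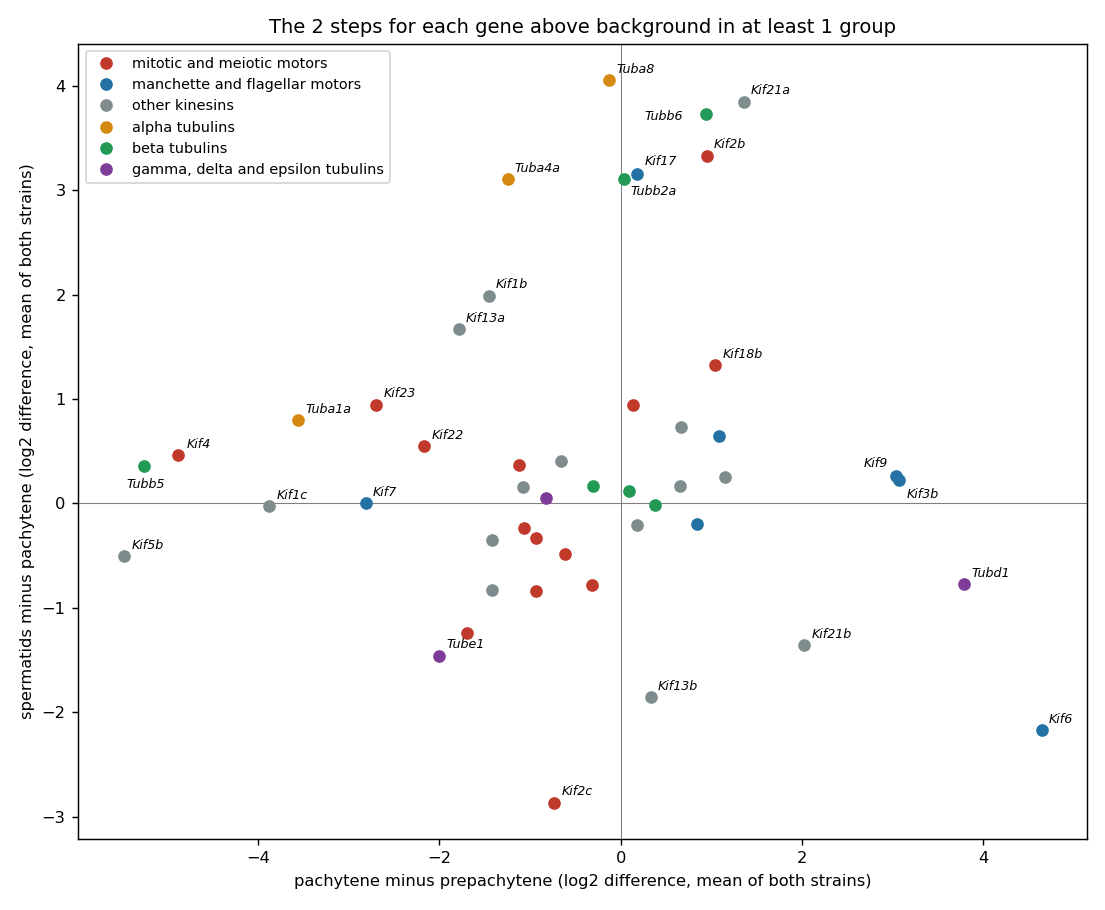
Each point is 1 of the 48 genes above background in at least 1 group, placed by its log2 difference from prepachytene to pachytene cells (horizontal) and from pachytene cells to spermatids (vertical), each as the mean of both strains and coloured by class. The spindle motors lie mostly left of 0 with Kif2b, Kif18b and Kif2c apart, the flagellar motors lie right of 0 except Kif7, and a cluster of Kif17, Kif2b, Kif21a, Tuba4a, Tuba8, Tubb2a and Tubb6 lies above 3 on the vertical axis.

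The promoters of the spindle and the flagellar motors were compared by short motifs. RefSeq start sites on GRCm38.p6 gave windows of 300 bases, 250 before and 50 after the start, for 46 of the 58 genes (50 windows, as 4 genes have several). The letters TTTGAA, the core of the cell cycle homology region that holds cell cycle genes silent outside division, were found on either strand in 11 of 15 windows of mitotic and meiotic motors (73.3%), in 1 of 8 windows of manchette and flagellar motors (12.5%) and in 17.9% of all 32851 promoter windows. CCAAT, the box bound by NF-Y, was found in 60.0% of the spindle motor windows, 4 of 8 flagellar motor windows and 37.4% of all windows. TGACG, the core of the cAMP response element that CREM binds in spermatids, was found in 53.3%, 37.5% and 20.8% of them. GTTGCC, a core of the X-box that RFX factors of ciliary genes bind, was found in 20.0% of the spindle motor windows, 4 of 8 flagellar motor windows and 12.5% of all windows. AACNGCC, the motif of A-MYB, was found in 13.3% of the spindle motor windows, 0 of 8 flagellar motor windows and 12.1% of all windows. Windows of 1 gene overlap, so that the windows are not independent, and a match of letters is no proof that a factor binds there.

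The windows of Kif4 and Kif23 are shown because both genes fell steeply after the prepachytene stage and carry TTTGAA and CCAAT near the start. Those of Kif9 and Kif17 are shown for the flagellar motors that rose early and late, with the X-box letters in both. That of Kif2b is shown for the spindle motor with the late rise, which has CCAAT and TGACG but no TTTGAA. Motif and direction did not go together throughout the list. The windows of Kif18b and Kif14, which also rose into spermatids, hold TTTGAA, and that of Kif18a, which fell into pachytene cells, does not. GTTGCC is missing from the windows of Kif6 and Kif3b, which rose into pachytene cells, and is found in that of Kif23, which fell. Each window shown is printed from its 5′ end on its own strand, with matches to any of the 5 motifs on either strand in capitals. TGACG matches on both strands of Kif17 because TGACGTCA reads the same on both strands.
Kif4, chrX:100625815-100626114, plus strand: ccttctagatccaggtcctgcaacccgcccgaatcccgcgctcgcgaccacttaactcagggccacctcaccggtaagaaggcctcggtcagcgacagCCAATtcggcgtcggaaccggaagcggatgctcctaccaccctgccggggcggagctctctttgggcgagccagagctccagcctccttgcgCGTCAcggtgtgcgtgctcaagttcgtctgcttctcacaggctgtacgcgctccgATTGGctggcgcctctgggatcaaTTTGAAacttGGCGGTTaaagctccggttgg
Kif23, chr9:61946750-61947049, minus strand: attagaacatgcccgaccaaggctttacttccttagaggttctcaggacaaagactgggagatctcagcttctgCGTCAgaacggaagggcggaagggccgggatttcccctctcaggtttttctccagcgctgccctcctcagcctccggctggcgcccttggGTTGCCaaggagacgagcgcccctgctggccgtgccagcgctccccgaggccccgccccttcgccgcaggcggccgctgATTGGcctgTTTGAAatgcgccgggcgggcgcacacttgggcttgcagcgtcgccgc
Kif9, chr9:110476708-110477007, plus strand: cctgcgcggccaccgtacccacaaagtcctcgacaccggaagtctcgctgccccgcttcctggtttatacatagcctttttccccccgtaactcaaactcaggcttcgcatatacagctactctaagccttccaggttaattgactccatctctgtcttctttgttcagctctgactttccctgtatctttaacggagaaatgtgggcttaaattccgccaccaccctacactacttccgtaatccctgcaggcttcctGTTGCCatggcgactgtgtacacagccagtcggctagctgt
Kif17, chr4:138262001-138262300, plus strand: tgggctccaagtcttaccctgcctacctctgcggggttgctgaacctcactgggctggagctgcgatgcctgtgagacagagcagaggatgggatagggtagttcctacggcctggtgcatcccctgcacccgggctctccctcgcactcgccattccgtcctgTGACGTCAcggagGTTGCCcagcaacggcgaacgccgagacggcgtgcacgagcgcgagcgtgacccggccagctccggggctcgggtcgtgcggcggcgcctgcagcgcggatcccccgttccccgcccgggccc
Kif2b, chr11:91577506-91577805, minus strand: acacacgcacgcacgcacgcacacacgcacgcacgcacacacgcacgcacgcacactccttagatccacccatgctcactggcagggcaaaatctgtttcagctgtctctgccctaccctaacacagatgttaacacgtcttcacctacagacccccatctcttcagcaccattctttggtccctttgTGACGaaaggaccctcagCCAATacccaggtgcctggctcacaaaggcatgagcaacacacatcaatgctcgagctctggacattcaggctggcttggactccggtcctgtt

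Among the tubulins, Tubb5 and Tuba1a fell steeply into pachytene cells, and 4 other alpha and beta tubulins rose steeply into spermatids. Tubb5, the beta tubulin of most dividing cells, read 7.98, 7.98, 8.94 and 9.05 in prepachytene cells, 3.19, 3.20, 3.29 and 3.24 in pachytene cells and 3.22, 3.96, 3.97 and 3.21 in spermatids. It fell by 5.26 into pachytene cells (SE 0.211, limma adjusted p = 2.27e-07), at least 4.61 when set against the background level, which its pachytene arrays did not reach. Its other probeset, 1455719_at, was below background on every array. Tuba1a, the alpha tubulin of young neurons, read 11.69, 10.94, 12.81 and 11.97 in prepachytene cells, 7.01, 7.55, 8.97 and 9.63 in pachytene cells and 8.25, 8.51, 9.58 and 10.02 in spermatids. It fell by 3.56 (SE 0.276, limma adjusted p = 1.01e-05) with no overlap between prepachytene and pachytene arrays. The Tuba1a probeset has the suffix _x_at, so that near-identical alpha tubulins may add to it. The summed Sertoli cell markers fell over the same step by more than these genes did, and their part in the falls was not tested.

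The tubulins that rose into spermatids were Tuba8, Tubb6, Tuba4a and Tubb2a. Tuba8, an alpha tubulin of testis and muscle, read 7.54, 6.91, 7.02 and 7.63 in prepachytene cells, 7.50, 7.33, 6.99 and 6.76 in pachytene cells and 11.69, 11.68, 10.51 and 10.93 in spermatids. It rose by 4.06 into spermatids (SE 0.197, limma adjusted p = 3.37e-06). Tubb6, a beta tubulin, read 5.52, 4.65, 5.53 and 5.96 in prepachytene cells, 7.00, 6.50, 6.40 and 5.51 in pachytene cells and 10.66, 10.86, 8.97 and 9.85 in spermatids. It rose by 3.73 into spermatids (limma adjusted p = 3.72e-05), whereas its earlier rise of 0.94 (limma adjusted p = 0.0267) was lost without B6 pachytene replicate 1, B6 prepachytene replicate 2, PWD pachytene replicate 1 or PWD prepachytene replicate 1, at 0.72 to 0.83. In all 4 of these genes every spermatid array lay above every pachytene array. Tuba4a, an alpha tubulin, read 12.13, 12.33, 12.30 and 13.07 in prepachytene cells, 10.92, 10.95, 11.56 and 11.42 in pachytene cells and 14.39, 14.48, 13.91 and 14.50 in spermatids. It fell by 1.25 into pachytene cells (limma adjusted p = 0.000607) and rose by 3.11 into spermatids (limma adjusted p = 7.68e-06). Tubb2a, a beta tubulin of neurons, read 6.92, 6.94, 7.01 and 7.98 in prepachytene cells, 6.41, 6.27, 8.88 and 7.43 in pachytene cells and 9.50, 9.85, 10.62 and 11.45 in spermatids. It rose by 3.11 into spermatids (limma adjusted p = 0.000223), and PWD pachytene replicate 1 stood above replicate 2. Of the 7 members at least 2 higher in spermatids than in pachytene cells, all 7 were higher in PWD pachytene replicate 1 than in replicate 2, against 25 of the 58 members in all, and the summed spermatid markers were 15.28 and 14.75 on those arrays.

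Tubb4b, a beta tubulin of cilia and flagella, stayed within a narrow range. It read 14.33, 14.30, 14.01 and 14.35 in prepachytene cells, 14.32, 14.11, 14.46 and 14.47 in pachytene cells and 14.72, 14.56, 14.12 and 14.43 in spermatids, and its changes were 0.09 (95% interval -0.15 to 0.33) and 0.12 (95% interval -0.12 to 0.35). Tubb2b and Tubb3, beta tubulins of neurons, hardly left the background. Tubb2b read 3.54, 3.51, 3.71 and 3.73 in prepachytene cells, 3.87, 3.85, 4.12 and 4.17 in pachytene cells and 4.02, 4.03, 3.96 and 3.95 in spermatids, and its rise of 0.38 into pachytene cells (limma adjusted p = 0.00206) was at least 0.13 against the background level. Tubb3 read 3.71, 3.67, 4.46 and 3.46 in prepachytene cells, 3.53, 3.38, 3.53 and 3.63 in pachytene cells and 3.67, 3.90, 3.59 and 3.59 in spermatids, above background on average only in PWD prepachytene cells and there on 1 of 2 arrays.

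Delta and epsilon tubulin, which build the triplet microtubules of centrioles, moved in opposite directions. Tubd1 read 7.48, 7.36, 6.59 and 6.22 in prepachytene cells, 11.03, 10.69, 10.69 and 10.38 in pachytene cells and 9.94, 10.08, 9.79 and 9.91 in spermatids. It rose by 3.79 into pachytene cells (SE 0.133, limma adjusted p = 1.18e-07) and fell by 0.77 into spermatids (limma adjusted p = 0.00227), and all 4 prepachytene arrays were below all others. Tube1 read 8.74, 8.55, 8.97 and 8.92 in prepachytene cells, 6.79, 6.80, 6.46 and 7.12 in pachytene cells and 5.30, 4.73, 5.95 and 5.35 in spermatids. It fell by 2.00 and then by 1.46 (limma adjusted p = 6.67e-05 and 0.000778), with no overlap between populations. Tubg1, the main gamma tubulin, read 7.93, 7.93, 9.11 and 9.41 in prepachytene cells, 6.53, 6.80, 8.53 and 9.24 in pachytene cells and 7.96, 8.04, 7.40 and 7.90 in spermatids. Its fall of 0.82 into pachytene cells over both strains (limma adjusted p = 0.00569) was seen in both strains' means, and its change into spermatids differed between strains.

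A group of 4 other kinesins changed by at least 2 between neighbouring populations. Kif5b, the ubiquitous heavy chain of conventional kinesin that hauls organelles, read 10.95, 11.22, 12.62 and 12.17 in prepachytene cells, 6.10, 6.09, 6.23 and 6.63 in pachytene cells and 5.50, 5.38, 6.01 and 6.15 in spermatids. It fell by 5.47 into pachytene cells (SE 0.146, limma adjusted p = 3.2e-08), and 4 further probesets fell by 3.75 to 5.65. Its later fall of 0.50 (limma adjusted p = 0.0313) was lost in 7 of 12 fits with 1 array left out, those without any spermatid array, either B6 pachytene array or PWD pachytene replicate 2 (-0.54 to -0.40). Kif1c, a motor of vesicles, read 6.54, 6.10, 6.11 and 6.32 in prepachytene cells, 2.35, 2.32, 2.49 and 2.41 in pachytene cells and 2.37, 2.41, 2.34 and 2.33 in spermatids. It fell by 3.87 (limma adjusted p = 3.93e-08), at least 2.39 against the background level, and its 3 other probesets were below background. Both genes had all prepachytene arrays far above the rest, as had the summed Sertoli cell and spermatogonial markers, whose part was not tested. Kif21a, a motor that slows microtubule growth at the cell cortex, read 5.32, 4.57, 7.29 and 6.33 in prepachytene cells, 6.82, 6.77, 8.77 and 6.58 in pachytene cells and 10.58, 10.59, 11.36 and 11.82 in spermatids. It rose by 3.85 into spermatids (limma adjusted p = 0.000282), while its earlier rise of 1.36 (limma adjusted p = 0.0305) was lost without either B6 pachytene array, B6 prepachytene replicate 2 or PWD prepachytene replicate 2 (1.12 to 1.37), and it was 0.81, still called, without PWD pachytene replicate 1. Kif21b, its relative in neurons and immune cells, read 4.21, 4.46, 4.73 and 6.00 in prepachytene cells, 6.59, 6.77, 6.94 and 7.19 in pachytene cells and 5.48, 5.82, 5.57 and 5.19 in spermatids. It rose by 2.03 and then fell by 1.36 (limma adjusted p = 0.000292 and 0.00468), so that it peaked in pachytene cells.

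Of the 19 other kinesins 13 were above background on average. From prepachytene to pachytene cells 7 of the 19 were called higher and 8 lower, and from pachytene cells to spermatids 4 higher and 4 lower. Over all genes these shares were 43.7% and 28.4%, and then 18.2% and 23.8%. Kif1b, a motor of mitochondria and synaptic vesicles, again depended on the probeset. Its brightest, 1451762_a_at, fell by 1.46 and rose by 1.99 (limma adjusted p = 0.000192 and 5.89e-05), while 1451200_at and 1423994_at fell at both steps, by 1.33 and 1.08 at the later one.

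Partner genes of the motors and tubulins are given beside the shares of all genes called, which were 43.7% higher and 28.4% lower into pachytene cells (median 0.09) and 18.2% higher and 23.8% lower into spermatids (median 0.005). Of 16 genes of manchette and intraflagellar cargo measured, 11 rose and 2 fell into pachytene cells, led by Spef2 (rise of 5.07) and Lrguk (rise of 4.03), which sperm tail and head formation need, while Klc3, a kinesin light chain, fell by 2.77 and Hook1, a manchette linker, by 0.87. Into spermatids 4 rose and 4 fell, with Klc3 higher by 3.20, the microtubule tip protein Clip1 by 2.76, whereas Ift20 of intraflagellar transport fell by 2.06 and Hook1 fell by 0.82. The median differences of this list were 1.84 and -0.16. Of 16 spindle and midzone genes, 7 rose and 8 fell into pachytene cells with a median of -0.16, and 2 rose and 13 fell into spermatids with a median of -1.03.

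Among the spindle genes the largest change into pachytene cells was that of a kinase. Aurkc, the meiotic Aurora kinase, rose by 5.40 and Aurka by 2.52, whereas Ckap5, a microtubule polymerase, fell by 2.47 and Numa1, a spindle pole protein, by 2.31. Into spermatids Numa1 fell by 2.34 and Cdca8, a subunit of the chromosomal passenger complex, fell by 2.16, while Ckap5 rose by 1.48 and the kinetochore kinesin Cenpe by 0.61. All of these passed limma's test over all probesets. Aurkc is also on the list of pachytene markers.

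Of 22 genes of tubulin folding and modification, 16 rose and 3 fell into pachytene cells with a median of 1.16, and 8 rose and 5 fell into spermatids with a median of 0.14. The deacetylase Hdac6 fell by at least 6.87, from 10.19, 10.20, 11.26 and 11.33 to values below background, and the acetylase Atat1 fell by 2.78, while Ttll6, which adds glutamate chains, rose by 4.44 and Agbl4, which removes them, rose by 4.12. Into spermatids Vash2, which removes the last tyrosine, rose by 3.50 and Ttll10, a glycylase, by 2.60, and Ttll1 fell by 2.32 and Ttll8 fell by 2.04. Of 8 genes of the gamma tubulin complex 2 rose and 5 fell into pachytene cells with a median of -1.64, Mzt2 by 3.94 and Nedd1 by 1.93 upward, while Tubgcp3 fell by at least 3.82 and Tubgcp6 by at least 3.75 to below background. Into spermatids 3 of the 8 fell and none rose, where Tubgcp5 fell by at least 1.59 to below background and Mzt1 fell by 2.19.

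The comparison of strains asked which of these genes differed between PWD and B6 within a population. In prepachytene cells 11 of the 58 genes were called higher in PWD (16.6% of all genes) and 5 lower (5.88% of all genes). In pachytene cells 6 were called higher (12.1% of all genes) and 5 lower (5.05% of all genes). In spermatids 1 was called higher (9.56% of all genes) and 5 lower (7.54% of all genes). Centring the arrays gave 9 higher and 9 lower, 5 higher and 5 lower, and 2 higher and 10 lower. The shares over all genes were not counted after centring. Without centring, the members gave about as many calls as other genes, apart from the single higher call in spermatids. The array's probes follow a reference close to B6, so that bases that differ in PWD may weaken hybridisation there, and their part was not tested.

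Kif7 gave the largest strain difference of the members, 5.73 in prepachytene cells (SE 0.187, limma adjusted p = 1.24e-06). It read 7.51 and 8.21 in PWD and 2.10 and 2.16 in B6, at least 3.98 on the log2 scale when set against the background level. Leaving out any array kept the call, with differences of 5.38 to 6.08. Kif7 has 1 probeset on the array. In the same arrays the summed Sertoli cell markers were 15.08 to 15.31 in PWD and 14.59 to 14.89 in B6, and of the defining markers in these prepachytene arrays Wt1 was above background on average only in PWD and Sox9 only in B6. The part of Sertoli cells in the Kif7 signal was not tested.

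Among the spindle motors Kif18b and Kif20b were lower in PWD in all 3 populations. Kif18b differed by -2.15, -1.60 and -1.48 from prepachytene cells to spermatids (limma adjusted p = 0.00184, 0.0109 and 0.0142), and no PWD array reached a B6 array of its population. The pachytene call was lost without B6 pachytene replicate 1 (-1.42), and the spermatid call without B6 spermatid replicate 2 (-1.40) or PWD spermatid replicate 1 (-1.36). Kif20b differed by -0.79, -0.88 and -1.13 (limma adjusted p = 0.0183, 0.0167 and 0.00476), of which the spermatid call held with each array left out in turn. The prepachytene call was lost without replicate 1 of either strain's prepachytene cells (-0.64 and -0.56), and the pachytene call without any one of the 4 pachytene arrays (-0.94 to -0.83). A dimmer probeset of Kif20b, 1440924_at, was higher in PWD prepachytene cells by 1.50 (limma adjusted p = 0.00352). For Kif18b there is 1 probeset.

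Kif11 differed in opposite directions, by -1.97 in pachytene cells and by 1.89 in spermatids (limma adjusted p = 0.0171 and 0.0194). The pachytene call was lost without either B6 pachytene array or PWD pachytene replicate 2 (-2.06 to -1.41) and the spermatid call without B6 spermatid replicate 2 or either PWD spermatid array (1.39 to 1.92). Its probeset 1435306_a_at differed by -1.63 in pachytene cells and -0.02 in spermatids, and 1452315_at by 1.00 and 3.66, so that the higher PWD value in spermatids was called with 2 of 3 probesets and the lower PWD value in pachytene cells also with 2 of 3. Kif2c was higher in PWD prepachytene cells by 0.94 (limma adjusted p = 0.0059), a call that held with each array left out in turn.

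Kif22 was higher in PWD prepachytene cells by 0.52 (limma adjusted p = 0.0271), lost without either B6 prepachytene array or PWD prepachytene replicate 1 (0.41 to 0.58). Kifc5b was higher there by 1.44 (limma adjusted p = 0.0147), lost without either B6 prepachytene array (1.42 and 1.45) and 0.88, still called, without PWD prepachytene replicate 1. Kif2a was lower there, at -0.77 (limma adjusted p = 0.0438), lost in 8 of 12 fits with 1 array left out (-0.88 to -0.66), all but those without a B6 pachytene or a PWD spermatid array. Kif20a was higher in PWD pachytene cells by 0.66 (limma adjusted p = 0.0482), lost in 10 of 12 such fits (0.52 to 0.79), all but those without a PWD prepachytene array. All 4 calls lay near the threshold.

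Among the flagellar motors 3 were called higher in PWD spermatocytes beside Kif7. Kif3a was higher by 1.05 in prepachytene cells (limma adjusted p = 0.00512) and by 0.69 in pachytene cells (limma adjusted p = 0.0447), the later call being lost in 8 of 12 fits with 1 array left out (0.64 to 0.74), all but those without a PWD prepachytene or PWD spermatid array. Its dimmer probesets went the other way in prepachytene cells, by -1.37 and -2.84 (limma adjusted p = 0.00734 and 0.000185). Kif3b was higher in PWD pachytene cells by 1.11 (limma adjusted p = 0.00119), with all 4 arrays apart, but its other probesets differed by -0.28 to 0.04. Kif9 was higher in PWD prepachytene cells by 0.97 (limma adjusted p = 0.00747), lost without B6 prepachytene replicate 2 (0.87).

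In spermatids 2 flagellar motors were lower in PWD. Kif27 differed by -1.56 (limma adjusted p = 0.00546) with no overlap between 11.18 and 10.61 in B6 and 9.29 and 9.37 in PWD, and the call held with each array left out in turn. Kif6 differed by -1.49 (limma adjusted p = 0.0295), lost without any one of the 4 spermatid arrays (-1.58 to -1.40). The summed spermatid markers were lower in PWD spermatids too, at 17.27 to 17.77 against 17.95 to 17.98, and their part in these calls was not tested.

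Tubg1 was the tubulin with the clearest strain difference. It was higher in PWD by 1.33 in prepachytene cells and by 2.22 in pachytene cells (limma adjusted p = 0.0105 and 0.00138), and differed by -0.35 in spermatids (95% interval -0.97 to 0.27). The prepachytene call was lost without either B6 prepachytene array or PWD prepachytene replicate 2 (1.18 to 1.34). Tuba1a was higher in PWD pachytene cells by 2.02 (limma adjusted p = 0.0131), lost without B6 pachytene replicate 1 or PWD pachytene replicate 2 (1.75 and 1.69). Tubd1 was lower in PWD prepachytene cells, at -1.01 (limma adjusted p = 0.00743), a call that held with each array left out in turn. Tubb1, a beta tubulin of platelets, passed the test at -0.06 in prepachytene cells but was below background on every array. Probesets of Tube1 beside its brightest also differed, with 1437942_x_at at 5.52 and 5.54 in B6 and 1.52 and 1.50 in PWD prepachytene cells, where the brightest probeset differed by 0.30 (95% interval -0.39 to 0.98).

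Of the other kinesins, Kif1b was higher in PWD prepachytene cells by 2.68 (limma adjusted p = 0.000277) and in pachytene cells by 1.10 (limma adjusted p = 0.0276), the later call being lost without B6 pachytene replicate 2 or either PWD pachytene array (0.88 to 1.22). Its next brightest probeset differed by -0.08 in prepachytene cells (95% interval -0.78 to 0.61). Kif5b was higher in PWD prepachytene cells by 1.31 (limma adjusted p = 0.00343), whereas its probeset 1418428_at was lower there, at -1.46 (limma adjusted p = 0.000816). The genes Kif1b, Kif5b, Kif3a and Kif20b thus gave strain differences in prepachytene cells that depended on the probeset.

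Kif5c, the neuronal heavy chain of kinesin, was lower in PWD, at -2.00 in pachytene cells and -1.89 in spermatids (limma adjusted p = 0.0114 and 0.0137). The pachytene call was lost without either B6 pachytene array or PWD pachytene replicate 1 (-2.10 to -1.87) and the spermatid call without B6 spermatid replicate 1 (-1.67). A dim probeset of Kif5c, 1450804_at, read 6.03 and 6.19 in B6 spermatids and 2.04 and 2.25 in PWD spermatids. Kif13b, a motor of neuronal vesicles, was lower in PWD pachytene cells at -1.67 (limma adjusted p = 0.00762), lost without B6 pachytene replicate 2 (-1.63). Kif26a, a kinesin without motor activity, was higher in PWD prepachytene cells by 2.03 (limma adjusted p = 0.0153), at least 1.06 against the background level and lost without either B6 prepachytene array (2.01 and 2.05). It was 1.28, still called, without PWD prepachytene replicate 1. Kifc3, a minus-end motor of cell junctions, was higher there by 1.03 (limma adjusted p = 0.042), lost in 10 of 12 fits with 1 array left out (0.92 to 1.14), all but those without a PWD pachytene array.

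**Figure D5:**
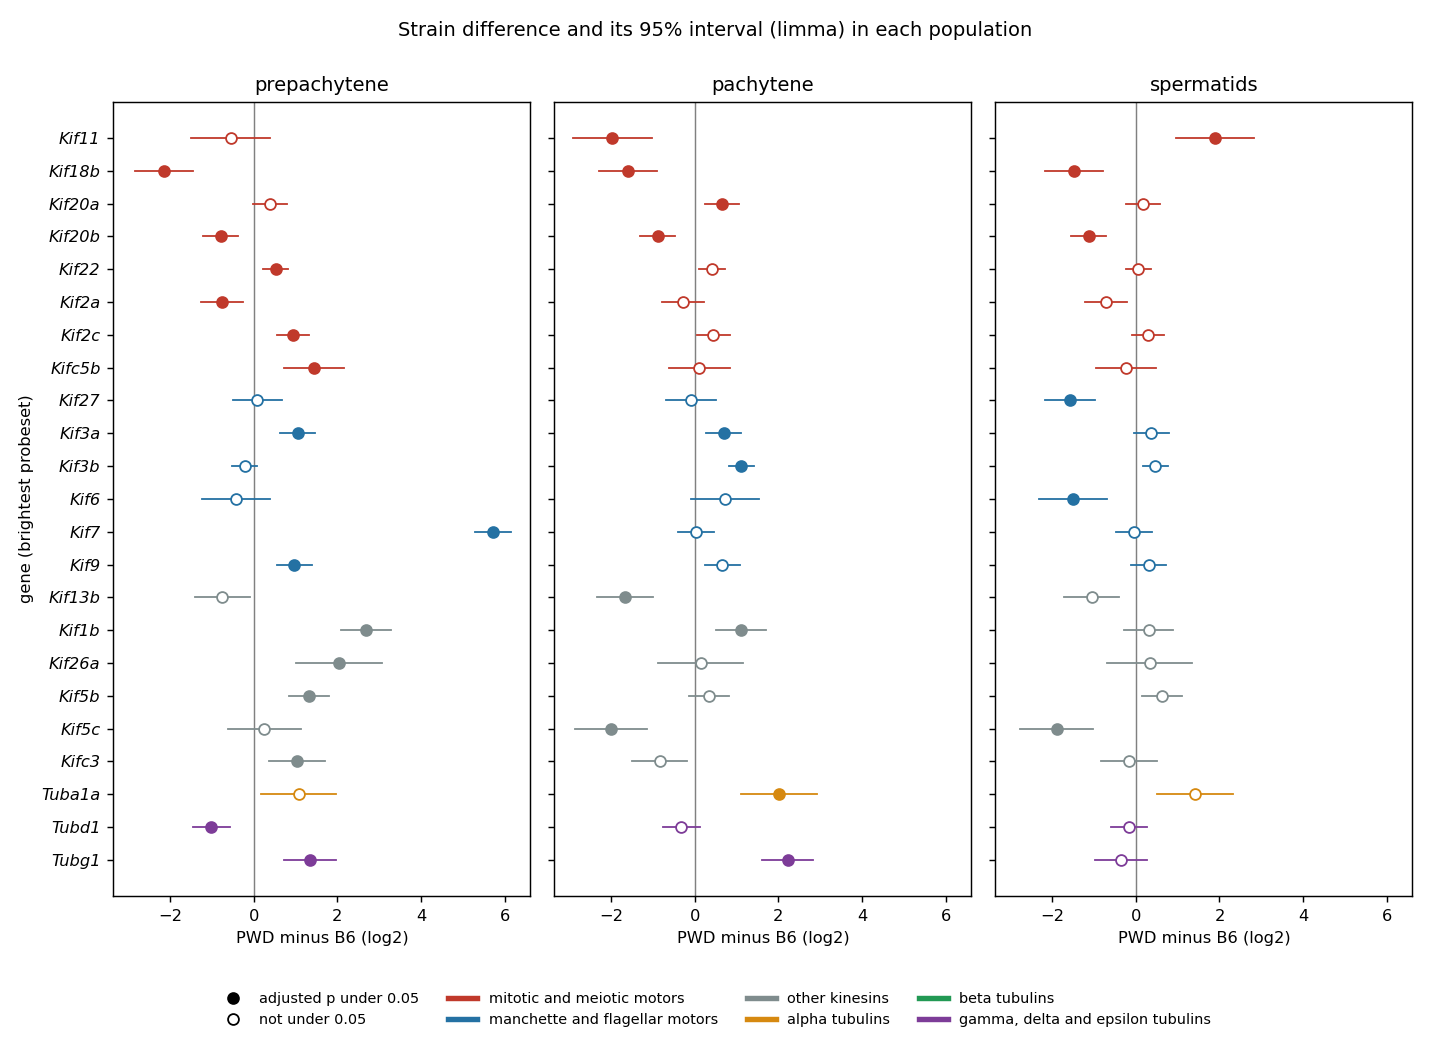
The 3 panels give PWD minus B6 on the log2 scale in each population for the 23 genes above background in at least 1 group that passed in at least 1 of the 3 populations, with the 95% interval of limma as a line and a filled point where the adjusted p was under 0.05. Kif18b and Kif20b lie left of 0 in all panels, Kif7 lies at 5.73 in prepachytene cells and near 0 elsewhere, and Kif11 lies at -1.97 in pachytene cells and 1.89 in spermatids.

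Whether the change between populations depended on the strain was tested directly. From prepachytene to pachytene cells 6 of the 58 genes passed (13.6% of all genes) and from pachytene cells to spermatids 2 passed (4.66% of all genes). From prepachytene to pachytene cells, the change of Kif3b was greater in PWD by 1.33 (limma adjusted p = 0.00341), and that of Kif7 was more negative in PWD, at -5.71 (limma adjusted p = 1.34e-05). With the second brightest probeset of Kif3b the difference of changes had the other sign, at -0.65. Kifc3, Kif5c and Kif1b gave -1.87, -2.26 and -1.57, but each was lost in some fits with 1 array left out. These were the fits without either B6 pachytene array or B6 prepachytene replicate 2 for Kifc3 (-1.90 to -1.77), without any 1 of the 8 spermatocyte arrays for Kif5c (-2.39 to -2.12), and without B6 pachytene replicate 1, PWD pachytene replicate 2, PWD prepachytene replicate 2 or either B6 prepachytene array for Kif1b (-1.59 to -1.33). Kifc3, for example, rose in B6 from 5.21 and 5.00 to 7.18 and 7.22, and in PWD it read 6.25 and 6.03 and then 6.79 and 5.93.

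From pachytene cells to spermatids, Tubg1 and Kif11 changed in opposite directions in the strains. Tubg1 went from 6.53 and 6.80 to 7.96 and 8.04 in B6 and from 8.53 and 9.24 to 7.40 and 7.90 in PWD, a difference of changes of -2.57 (limma adjusted p = 0.00971). Kif11 went from 8.28 and 8.10 to 5.52 and 4.53 in B6 and from 6.78 and 5.67 to 6.94 and 6.88 in PWD, a difference of changes of 3.85 (limma adjusted p = 0.0101). Both calls held with each array left out in turn. Tubb1 also passed from prepachytene to pachytene cells, at 0.10, with every array below background.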

How the data were processed

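RNA of sorted prepachytene spermatocytes, pachytene spermatocytes and spermatids of B6 and PWD males was labelled with 2 rounds of amplification and hybridised to 12 Affymetrix expression arrays. The deposited values are log2 intensities that the authors made with GCRMA (version not given in the sources used here), which corrects background by probe sequence, quantile normalizes the arrays and sums the probes of a probeset. The study's methods name RMA, and the labels' GCRMA was taken.

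Of 45037 probesets left after 64 controls, 34945 named 1 gene by the platform annotation, 932 several and 9160 none. limma 3.58.1 in R 4.3.3 fitted 6 group means to all 45037 (lmFit, eBayes with trend), with Benjamini-Hochberg adjustment within each comparison at 0.05, strains weighted equally in comparisons of populations. A gene was given by its brightest probeset. The script was tested on simulated data. Arrays carry no read depth, and the 2 arrays per group limit the precision. Promoter windows came from RefSeq on GRCm38.p6, and no genome coordinates were measured.

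Values on each array were given for the spindle and flagellar motors and tubulins above background in at least 1 group. Other kinesins were named where called with a difference of at least 2 between neighbouring populations, any member where called between strains or in strain dependence, and of each partner list the 2 largest called changes in each direction. The members, the lists and the rule were chosen with earlier results of these data known. Labels number replicates 1 and 2 in every group. Deviations of same-numbered arrays correlated at -0.225 to 0.0747, so that the numbers were not taken as pairs. The alternatives were another quantile normalization, centring, a filter on dim probesets, other variance priors, array weights, other probesets per gene, a replicate block fixed or random, fits of the compared groups alone, and each array left out in turn.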

Additional observations from a re-analysis of the deposited data

Results flagged for a closer look

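The change between populations differed between the strains, by a direct test, for 8 of the 58 genes. From prepachytene to pachytene cells the difference of changes, PWD minus B6 on the log2 scale, was -5.71 for Kif7, -2.26 for Kif5c, -1.87 for Kifc3, -1.57 for Kif1b, 1.33 for Kif3b and 0.10 for Tubb1. From pachytene cells to spermatids it was 3.85 for Kif11 and -2.57 for Tubg1. Tubb1 was below background on every array. For Kif3b, Kif1b and Kif5c the difference had the other sign with the second brightest probeset, which is below background on average for Kif5c. The cause of the differences was not tested.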

How the results depend on the processing

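Counts of members called between populations stayed within 1.5 times the reported ones under all alternatives run, except that centring the arrays gave 30 called higher from pachytene cells to spermatids, and those called lower there were 7 with the mean of a gene's probesets and 5 with the second brightest probeset. Counts of strain calls were small and moved more. The pooled spread did not suit all groups alike, as array weights ran from 0.385 in PWD prepachytene cells to 2.555 in B6 pachytene cells, a low weight marking a wide spread. Called higher in PWD prepachytene cells were 7 with array weights and 5 in a fit of those groups alone, and called lower were 1 with weights, 9 after centring, 2 in the groups alone and 3 with a variance prior without trend. In pachytene cells those called higher were 12 with weights, 1 in the groups alone and 3 after another quantile normalization, and those called lower 2 in the groups alone, 2 with the mean of probesets and 3 with the second brightest. In spermatids those higher were 4 with weights, 2 after centring or without trend, 0 in the groups alone and 3 with the mean of probesets or with probesets above background only, and those lower 10 after centring, 3 in the groups alone, 10 with probesets above background only and 2 with the second brightest. Strain dependence from prepachytene to pachytene cells gave 1 higher after centring, another quantile normalization, the background filter, the prior without trend or the second brightest probeset, and lower 1 with weights, 2 with the mean and 2 with the second brightest. From pachytene cells to spermatids it gave 2 higher with the mean or the second brightest, and lower 6 with weights, 2 after centring or without trend, 2 with the mean and 3 with the background filter. The cause of these moves was not tested.

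With each array left out in turn, members called higher and lower were 14 to 20 and 23 to 24 from prepachytene to pachytene cells, 12 to 16 and 9 to 12 from pachytene cells to spermatids, 24 to 27 and 21 to 23 from prepachytene cells to spermatids, and, between strains, 5 to 13 and 2 to 5 in prepachytene cells, 3 to 8 and 2 to 5 in pachytene cells and 0 to 3 and 3 to 7 in spermatids. For strain dependence they were 1 to 3 and 1 to 7, and then 1 to 2 and 1 to 2.

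Of 146 calls of single genes, 15 were lost with array weights, 15 after centring, 14 after another quantile normalization, 22 each with the mean of probesets and the second brightest (beside those that turned in sign), 23 of 139 in fits of the compared groups alone, 5 with the replicate block, 2 without trend, 1 with a robust prior and none with a random block. With 2 arrays per group no pairing could be shown, and the PWD pachytene numbers, which ran against the PWD prepachytene ones, were crossed in a block added after seeing the data, which lost 4 calls. Those calls turned in sign only with another choice of probeset, 33 with the second brightest, of which 19 had that probeset below background, and 11 with the mean. From prepachytene to pachytene cells the second brightest gave 0.029 for Tubb5, 0.18 for Kif18a, 0.14 for Kif1c, -1.04 for Kifc2 (mean -0.19), 0.77 for Tube1, 0.14 for Kif2c (mean 0.22) and -0.40 for Kif21a. From pachytene cells to spermatids it gave -0.068 for Kif1a, 0.009 for Kif21b, 0.024 for Kif13b, 2.73 for Kif2c (mean 0.49), 0.13 for Kif6, 0.09 for Kif2a and -1.33 for Kif1b (mean -0.058). From prepachytene cells to spermatids it gave 0.083 for Tubb5, 0.19 for Kif18a, 0.23 for Kif1c, -0.91 for Kifc2 (mean -0.044), 2.87 for Kif2c (mean 0.71), 4.05 for Kif2a (mean 1.32), -0.13 for Kif21a and -2.01 for Kif1b (mean -1.93), with a mean of -0.90 for Kif3a. Between strains it gave 1.50 for Kif20b (mean 0.16) and -0.081 for Kif1b in prepachytene cells, with a mean of -0.73 for Kif3a. In pachytene cells it gave -0.070 for Kif3b, 0.18 for Kif13b, 0.40 for Kif20b and 0.083 for Kif5c, and in spermatids 0.20 for Kif6 and -0.019 for Kif11. For strain dependence it gave -0.65 for Kif3b, 0.63 for Kif1b and 0.84 for Kif5c. Where signal was near background, small differences passed the test and folds are bounds.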
